A study of Mus musculus with 6 samples.

Results

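The genes described here are the 5 subunits of the transcription factor NF-κB (Nfkb1, Nfkb2, Rel, Rela and Relb) and 5 of its inhibitors (Nfkbia, Nfkbid, Nfkbie, Nfkbiz and Tnfaip3), chosen by symbol. All 10 were found among the 22899 genes of each table. They were measured by RNA sequencing of CD4+ (helper) T cells that flow cytometry had separated from spleens of C57BL/6 mice. Obese mice had eaten a high-fat diet with 60 kcal% fat and lean mice a normal diet, generally beginning at 6 to 8 weeks of age and lasting up to 4 months. Each group held 3 libraries. The labels name no allele and no other treatment. They also leave out whether a library is 1 mouse or a pool, and whether the 3 of a group are separate animals, so the p-values cover only the spread among libraries, which may be technical.

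NF-κB proteins bind DNA as dimers of the 5 subunits, which share the Rel homology domain. Rela, Rel and Relb carry a transactivation domain, while Nfkb1 and Nfkb2 encode the precursors p105 and p100, which are processed to p50 and p52. In resting lymphocytes the IκB proteins hold dimers in the cytoplasm until the IκB kinase (IKK) complex marks them for degradation, and T cell receptor and TNF family receptor signals both lead to that kinase. Several inhibitor genes are themselves transcribed by NF-κB, which closes a feedback loop.

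Because of that known loop, promoter stretches of these genes that match the κB consensus, the DNA motif bound by NF-κB, are shown first. RefSeq promoter windows on GRCm38.p6, from 250 bases before to 50 after an annotated start, were found for 7 of the 10 genes, in 12 windows. At least 1 match on either strand lay in the windows of 6 of these 7 genes, which is 85.7%, and in 5.14% of the 27025 genes with a window. Per window, the shares were 8 of 12 for these genes and 4.51% of 32851 in all. These promoter counts over all genes leave out 1 chromosome, which holds none of the 10 genes. A match to the consensus is a description of the letters and not a measured binding site. The stretches below are written 5′ to 3′ on the strand of the gene, with the matching bases in capitals. Not every match is shown. In Rel and at the first start of Nfkb2, overlapping matches on both strands merge into 1 run of 11 bases.
Nfkbia, minus strand, chr12:55492652-55492691: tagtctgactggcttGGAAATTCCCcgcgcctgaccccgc
Nfkb2, first start, plus strand, chr19:46304683-46304723: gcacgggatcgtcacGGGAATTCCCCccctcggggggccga
Nfkb2, second start, plus strand, chr19:46305690-46305729: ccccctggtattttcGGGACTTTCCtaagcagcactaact
Rel, minus strand, chr11:23771036-23771076: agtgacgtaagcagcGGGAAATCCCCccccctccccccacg
Tnfaip3, first start, minus strand, chr10:19015398-19015437: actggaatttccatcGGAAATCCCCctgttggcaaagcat
Nfkbie, plus strand, chr17:45555579-45555618: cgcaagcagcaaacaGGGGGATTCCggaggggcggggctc
Nfkbid, second start, plus strand, chr7:30422165-30422204: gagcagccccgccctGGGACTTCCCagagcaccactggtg

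The match of Nfkbia began at position −29 from its start, and the nearest one of Tnfaip3 at −12. Tnfaip3 had another match at −125, not shown. In Nfkbid the match shown began at −226, and another, not shown, at −181. Nfkb2 had matches in all 3 of its windows. They began at −39 and −11 at the first start with a window, at −236 and 10 at the second, and at −225 at the third. The listed first base of this gene, 46300994, lay before all of these windows. The match at 10 and the match at −225 are the same bases, seen from 2 starts. The window of Rela held no match to the consensus. The looser motif GGGNNNNNCC, which contains the consensus, lay in the windows of all 7 genes and in 53.5% of all genes with a window.

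**Figure D1:**
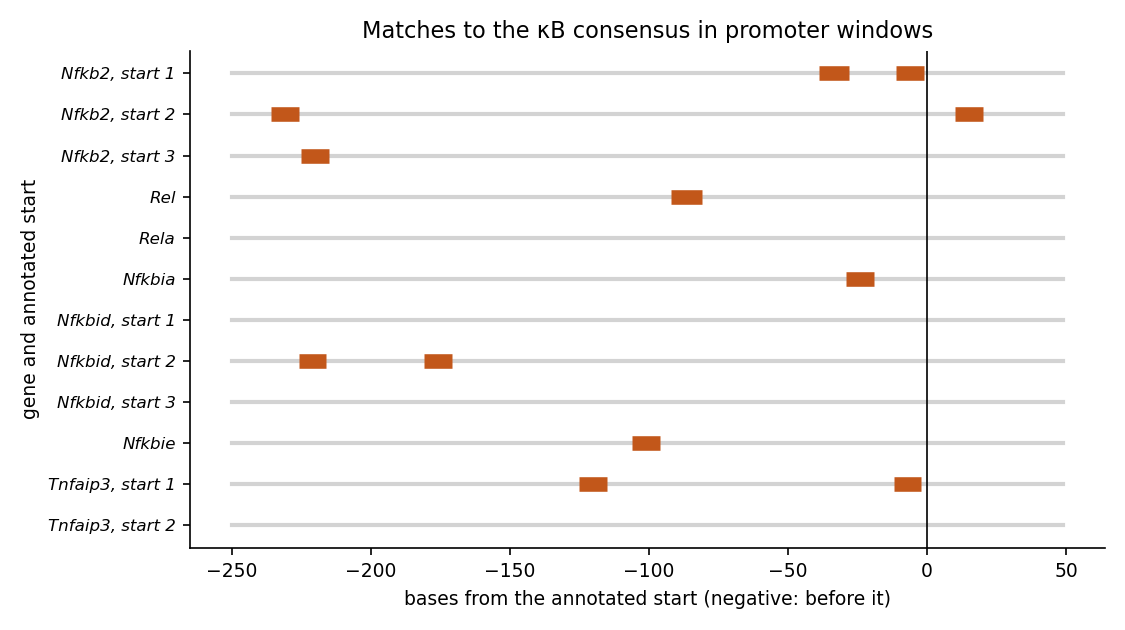
Matches to the κB consensus (orange blocks) in the promoter windows of 7 genes, with distance from the annotated start in bases on the x axis and 1 row per annotated start. Matches lie in 8 of the 12 windows, and the window of Rela has none.

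The libraries carried the transcripts of helper T cells and of other cells too. Cd4, which defines the lineage, averaged 309.4 ± 26.0 FPKM in obese and 339.9 ± 20.3 FPKM in lean libraries (SD, n = 3 each), where FPKM is fragments per kilobase of transcript, scaled to the size of the library. Macrophage markers were called higher in obese libraries for 15 of 15 tested, with summed levels of 1171 to 1465 FPKM in obese and 452.2 to 483.8 FPKM in lean libraries. Erythroid markers were called higher for 12 of 12, with sums of 4380 to 29080 FPKM in obese and 181.7 to 481.7 FPKM in lean libraries. Neutrophil markers were called lower for 7 of 12, with sums of 164.6 to 471.2 FPKM in obese and 607.2 to 880.7 FPKM in lean libraries, and NK cell markers were called lower for 4 of 10. Plasma cell markers were called higher for 2 of 8. All 8 had an unadjusted p under 0.05 (limma) and a positive difference, obese minus lean in log2(FPKM + 1), with a median of 0.66. B cell markers (0 of 12 called, 4 at an unadjusted p under 0.05) summed to 566.6 to 1058 FPKM in obese and 391.1 to 843.1 FPKM in lean libraries. Their differences, obese minus lean in log2(FPKM + 1), were positive for 12 of 12 under every scaling tried, with a median of 0.44, against 0.10 over all tested genes. No dendritic cell, CD8 T cell or T cell marker was called (of 7, 2 and 10 tested). Of the 10 T cell markers, 9 had a negative difference, with a median of −0.10, while 70.8% of all tested genes had a positive one. When libraries were scaled without 10 haemoglobin genes, 5 T cell markers were positive and 5 negative. Over all tested genes, 5.77% were called higher and 0.519% lower in obese libraries (limma, adjusted p under 0.05), and 25.9% had an unadjusted p under 0.05. No marker in these lists was at 0 in all libraries. The summed FPKM of a library lay between 595106 and 630744 in obese and between 616104 and 656303 in lean libraries. The values used are FPKM alone, without read counts, and depth is unknown.

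None of the 10 NF-κB genes passed the test between obese and lean libraries (limma, Benjamini-Hochberg adjusted p under 0.05 over 10788 genes), while 6.28% of all tested genes did. At an unadjusted p under 0.05 there were 2 of the 10, Nfkb2 and Nfkbiz, against 25.9% of all tested genes. The obese and lean libraries did not overlap for 1 gene, Nfkb2, which was higher in obese libraries. Of all tested genes 31.5% did not overlap, and 25.4% did not overlap and were higher in obese libraries. The differences in mean log2(FPKM + 1), taken as obese minus lean, ran from −0.17 to 0.33 over the 10 genes, with a median of 0.11. The median over all tested genes was 0.10. Of the 10, 8 had a positive difference, as did 70.8% of all tested genes, but after median-of-ratios scaling, which brings the median of all genes to −0.0013, 4 were positive and 6 negative. These are bulk samples, in which fewer cells of a type and less RNA per cell cannot be told apart.

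The order of the mean levels was the same in both groups apart from Relb, Nfkb2 and Nfkbid, whose levels overlapped. Nfkbia was the most abundant, with a mean of 179.3 FPKM over the 6 libraries, higher than 96.3% of tested genes. Rela followed at 95.5 FPKM and Nfkb1 at 62.3 FPKM, each separated from the next gene in all 6 libraries. Relb at 42.8 FPKM and Nfkb2 at 41.7 FPKM did not separate, as each was the higher in 3 libraries, and Nfkb2 also overlapped with Nfkbid at 38.1 FPKM. Nfkbie at 26.3 FPKM lay above Tnfaip3 at 20.4 FPKM in each of the 6 libraries, although their ranges overlapped. Nfkbiz at 9.04 FPKM and Rel at 3.63 FPKM were lowest, and Rel was higher than 19.9% of tested genes.

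**Figure D2:**
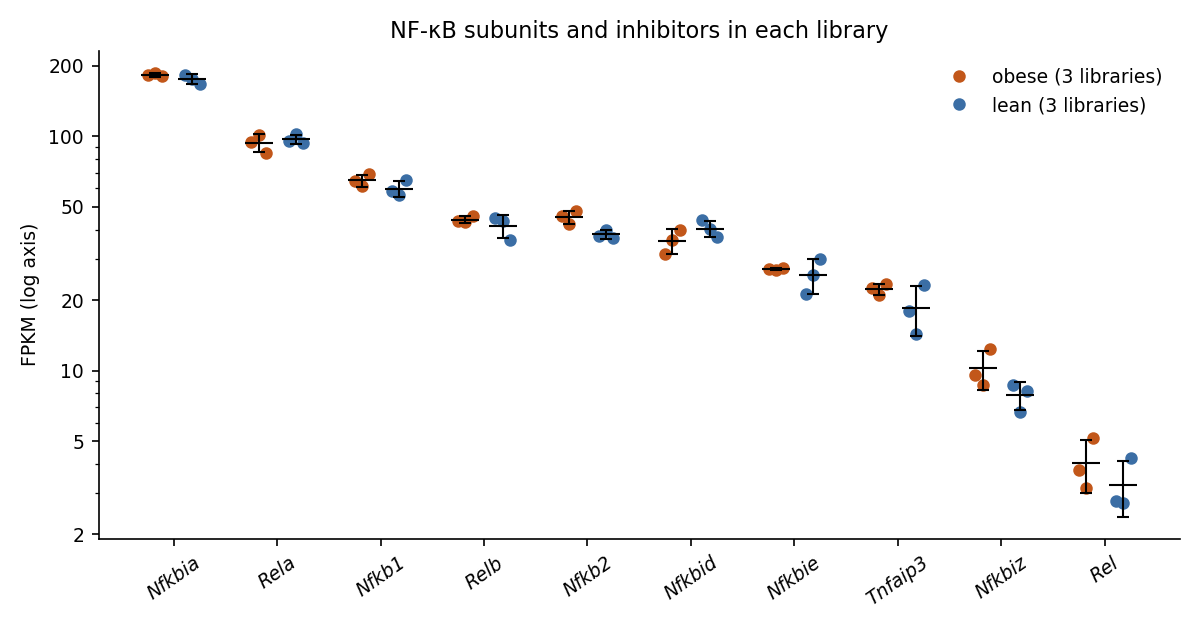
FPKM on a log axis of the 10 genes in each of the 3 obese (orange, left) and 3 lean (blue, right) libraries, ordered by mean level. Bars are the mean and SD of a group. The groups overlap for every gene but Nfkb2, and Nfkbia stands highest, between 167.05 and 186.52 FPKM.

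Among the subunits, Rela (gene 19697, chromosome 19, 5637442 to 5648134, GRCm38.p6, plus strand) encodes p65, the main transactivating partner of the canonical pathway. It stood at 94.69, 101.66 and 85.30 FPKM in obese libraries 1 to 3, against 95.15, 102.04 and 93.85 FPKM in lean libraries 1 to 3. The lowest value was that of obese 3 and the other obese values lay within the lean range. The log2 difference was −0.05 ± 0.08 (SE), with a 95% interval from −0.24 to 0.14 (limma, adjusted p = 0.736). It was positive, at 0.02, without obese 3.

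Nfkb1 (gene 18033, chromosome 3, 135584655 to 135691969, GRCm38.p6, minus strand) encodes p105 and p50, the usual partner of p65. It stood at 64.42, 61.23 and 68.79 FPKM in obese libraries 1 to 3, against 58.30, 55.99 and 65.25 FPKM in lean libraries 1 to 3. Lean 3 lay above 2 of the obese libraries, so the groups overlapped. The log2 difference was 0.11 ± 0.08 (SE), with a 95% interval from −0.08 to 0.30 (limma, adjusted p = 0.409), and was −0.0024 after median-of-ratios scaling.

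Nfkb2 (gene 18034, chromosome 19, 46300994 to 46312400, GRCm38.p6, plus strand) encodes p100, which acts both as the precursor of p52 and as an inhibitor in the non-canonical pathway. It stood at 45.81, 42.06 and 47.82 FPKM in obese libraries 1 to 3, against 37.69, 39.96 and 36.82 FPKM in lean libraries 1 to 3. Every obese library lay above every lean one. The log2 difference was 0.24 ± 0.08 (SE), with a 95% interval from 0.06 to 0.42, and it did not pass over all genes (limma, unadjusted p = 0.0144, adjusted p = 0.105). It was 0.13 above the median of all tested genes. It passed under 2 of 17 alternatives, with an adjusted p = 0.0442 with limma when libraries were scaled without 10 haemoglobin genes and 0.0306 with library weights, and the range over the 17 was 0.0306 to 0.405. The difference fell to 0.12 after median-of-ratios scaling (limma, adjusted p = 0.405) and to 0.19 after quantile normalization (limma, adjusted p = 0.202).

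Relb, the partner of p52 in the non-canonical pathway (gene 19698, chromosome 7, 19606217 to 19629438, minus strand), stood at 43.49, 42.93 and 45.69 FPKM in obese libraries 1 to 3, against 44.73, 43.62 and 36.16 FPKM in lean libraries 1 to 3. Lean 3 lay below all others, and lean 1 and lean 2 lay within the obese range. Its log2 difference of 0.09 ± 0.09 (SE; limma, adjusted p = 0.572) was −0.0048 without lean 3. Rel, the c-Rel subunit of antigen-activated lymphocytes (gene 19696, chromosome 11, 23736847 to 23770969, minus strand), stood at 3.75, 3.16 and 5.16 FPKM in obese libraries 1 to 3, against 2.78, 2.71 and 4.24 FPKM in lean libraries 1 to 3. Its relative spread was the widest of the 10 genes, with coefficients of variation of 25.5% in obese and 26.6% in lean libraries. Its log2 difference of 0.24 ± 0.18 (SE) had a 95% interval from −0.18 to 0.66 (limma, adjusted p = 0.429). It was 0.09 without obese 3, 0.16 without lean 2, 0.37 without obese 2, 0.40 without lean 3 and 0.0014 after quantile normalization.

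Because FPKM is per length, the subunits can be set against each other within a library. Rela made up 33.8% to 40.5% of the summed subunit FPKM in obese and 39.7% to 41.8% in lean libraries, and Nfkb1 made up 24.4% to 27.2% in obese and 22.9% to 27.6% in lean libraries. Nfkb2 made up 18.0% ± 1.10 in obese and 15.9% ± 0.404 in lean libraries (SD, n = 3 each), and its share was the only subunit share whose groups did not overlap. The summed FPKM of the 5 subunits was 251.0 to 252.8 in obese and 236.3 to 244.3 in lean libraries, without overlap. Of all single tested genes, 31.5% did not overlap either. After median-of-ratios scaling, 2 of the 5 subunits had a positive and 3 a negative difference, with a median of −0.0024. These sums and shares are given without a test.

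**Figure D3:**
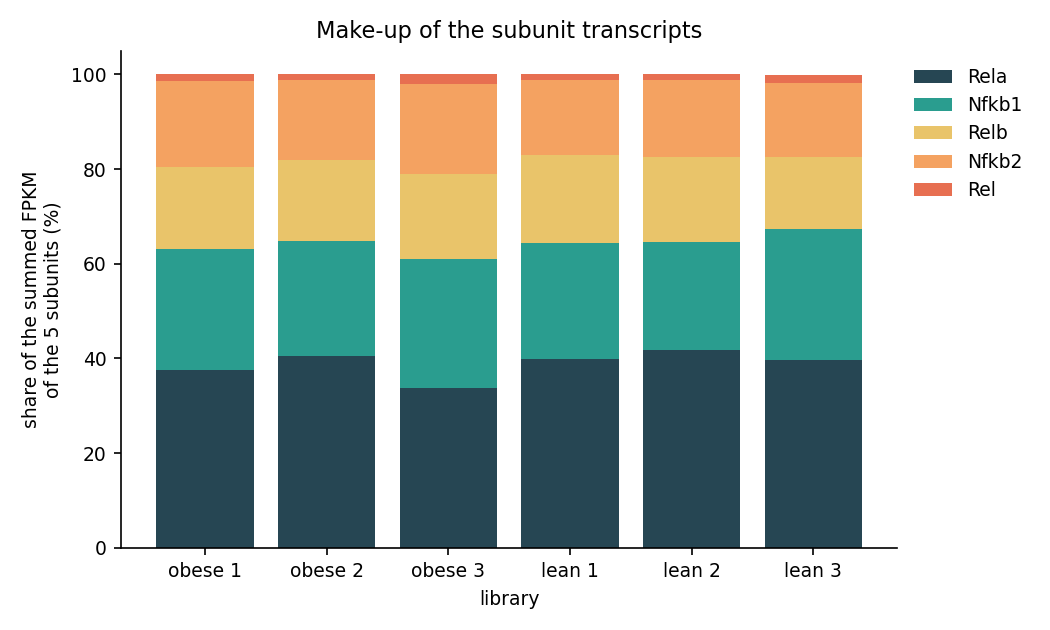
Share of each subunit in the summed FPKM of the 5 subunits (stacked bars, in percent) for the 3 obese and the 3 lean libraries. Rela is the largest share in each library, and the share of Nfkb2 is 16.8% to 18.9% in obese and 15.6% to 16.4% in lean libraries.

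Among the inhibitors, Nfkbia (gene 18035, chromosome 12, 55489409 to 55492647, GRCm38.p6, minus strand) encodes IκBα, the quickly resynthesised inhibitor that takes NF-κB back out of the nucleus. It stood at 181.97, 186.52 and 180.28 FPKM in obese libraries 1 to 3, against 183.47, 176.51 and 167.05 FPKM in lean libraries 1 to 3. Lean 1 lay within the obese range. The log2 difference was 0.06 ± 0.07 (SE), with a 95% interval from −0.10 to 0.21 (limma, adjusted p = 0.611), the narrowest interval of the 10 genes. It was −0.06 after median-of-ratios scaling. The ratio of Nfkbia to Rela FPKM was 1.96 ± 0.142 in obese and 1.81 ± 0.103 in lean libraries (SD, n = 3 each), with overlapping groups.

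Nfkbie (gene 18037, chromosome 17, 45555700 to 45563169, plus strand) encodes IκBε, another cytoplasmic inhibitor. It stood at 27.07, 26.80 and 27.52 FPKM in obese libraries 1 to 3, against 21.26, 25.60 and 29.81 FPKM in lean libraries 1 to 3. The obese values lay close together inside the wide lean range. Its log2 difference was 0.10 ± 0.12 (SE; limma, adjusted p = 0.628) and was −0.03 without lean 1.

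The atypical IκB proteins of the nucleus had differences of opposite sign, neither past the threshold. Nfkbid (gene 243910, chromosome 7, 30421731 to 30428749, plus strand) encodes IκBNS, which acts on promoter-bound NF-κB. It stood at 31.44, 36.05 and 39.98 FPKM in obese libraries 1 to 3, against 43.74, 40.10 and 37.14 FPKM in lean libraries 1 to 3. Its log2 difference of −0.17 ± 0.10 (SE) had a 95% interval from −0.41 to 0.07 (limma, adjusted p = 0.326), and it was negative under each of the 17 alternatives. Nfkbiz (gene 80859, chromosome 16, 55811375 to 55838954, minus strand) encodes IκBζ, a nuclear cofactor of p50. It stood at 9.59, 8.68 and 12.36 FPKM in obese libraries 1 to 3, against 8.72, 6.67 and 8.20 FPKM in lean libraries 1 to 3. Obese 2 lay just under lean 1, so the groups overlapped. Its log2 difference of 0.33 ± 0.14 (SE) did not pass over all genes (limma, unadjusted p = 0.0486, adjusted p = 0.191). It was 0.20 without obese 3, 0.15 after quantile normalization and 0.12 with library weights.

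Tnfaip3 (gene 21929, chromosome 10, 19000910 to 19015410, minus strand) encodes A20, a ubiquitin-editing enzyme that ends signalling upstream of IKK. It stood at 22.53, 20.97 and 23.37 FPKM in obese libraries 1 to 3, against 17.88, 14.40 and 23.22 FPKM in lean libraries 1 to 3. Lean 3 reached the obese level and the other lean libraries lay below it. The log2 difference was 0.28 ± 0.15 (SE), with a 95% interval from −0.06 to 0.62 (limma, adjusted p = 0.272). Without lean 3 it was 0.45 (limma, adjusted p = 0.0536), without lean 2 it was 0.12 (limma, adjusted p = 0.653), and over all single-library omissions the adjusted p ran from 0.0536 to 0.653.

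Set against the level of Rela, each of the 5 inhibitors had a ratio whose groups overlapped. The summed FPKM of the 5 inhibitors was 278.4 ± 5.48 in obese and 267.9 ± 6.30 in lean libraries (SD, n = 3 each), with ranges of 272.6 to 283.5 in obese and 263.3 to 275.1 in lean libraries. Relative to Rela, Tnfaip3 stood at 0.206 to 0.274 in obese and 0.141 to 0.247 in lean libraries. Nfkbid stood at 0.332 to 0.469 of Rela in obese and 0.393 to 0.460 in lean libraries. Within the non-canonical pair, the ratio of Nfkb2 to Relb FPKM was 0.980 to 1.05 in obese and 0.843 to 1.02 in lean libraries, also with overlap. These ratios are given without a test.

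**Figure D4:**
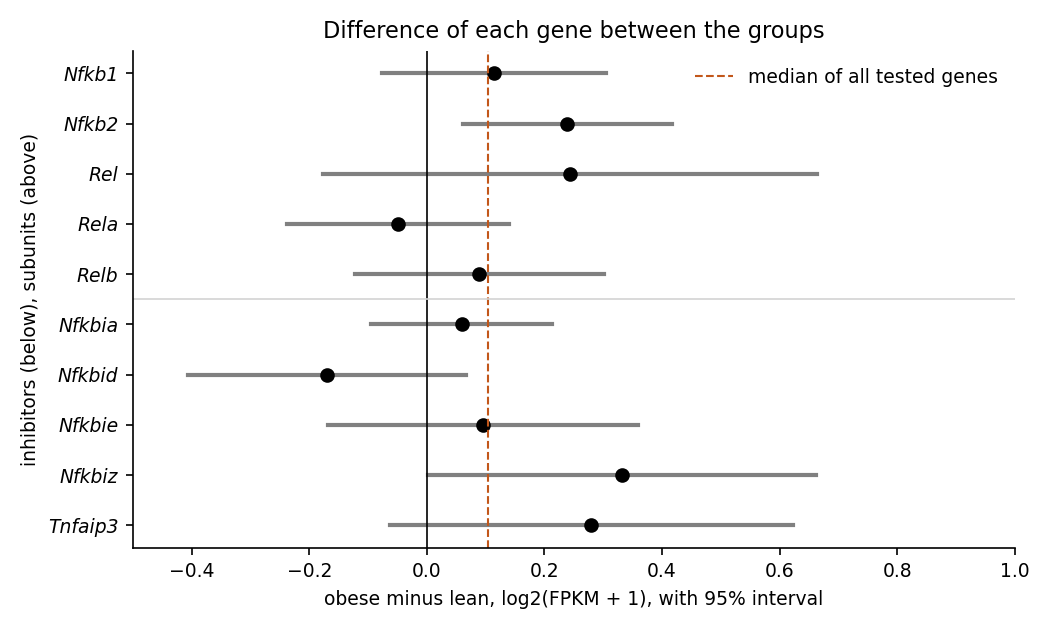
Obese minus lean difference of each gene in mean log2(FPKM + 1) (points), with its 95% interval from limma (bars); subunits are above the grey line and inhibitors below it. The intervals of Nfkb2 and Nfkbiz leave out 0, and the dashed line is the median of all tested genes, 0.10.

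Obese 3 and lean 2 held the highest or lowest value of several members. Obese 3 had the highest Nfkb1, Nfkb2, Rel, Relb, Nfkbiz and Tnfaip3 of the 6 libraries and the lowest Rela, and it also had the highest sums of B cell (1058 FPKM), plasma cell (1420 FPKM), dendritic cell (46.6 FPKM) and CD8 T cell (79.6 FPKM) markers and of immediate early genes (2227 FPKM). Its sum of T cell markers, 2906 FPKM, was the lowest. Lean 2, with the next highest sum of B cell markers, 843.1 FPKM, had the lowest Nfkb1, Rel, Nfkbiz and Tnfaip3 and the highest Rela. The part of other cell types in these values was not tested. The 5 genes whose pattern over the 6 libraries lay nearest to that of Nfkbia, among 7900 others with a mean of at least 5 FPKM, were Yipf1, Cd99l2, Efhd2, Bmp7 and Mfn2. Their root mean square distance from it was 0.0165 to 0.018 on the log2 scale, a description over 6 libraries of 2 groups.

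Genes around the 10 members were read from lists of the pathway. Of 18 other IκB proteins and brakes tested, 1 was called higher and none lower (background 5.77% higher and 0.519% lower), with 3 at an unadjusted p under 0.05 and a median difference of 0.08. It was Tax1bp1, an adaptor of A20, with 26.5 ± 2.57 FPKM in obese and 19.3 ± 2.06 FPKM in lean libraries (SD, n = 3 each; log2 difference 0.44 ± 0.11, SE; limma, adjusted p = 0.0473). The call was lost when any library except lean 3 was left out (limma, adjusted p up to 0.144) and under median-of-ratios scaling (limma, adjusted p = 0.0848). Quantile normalization (limma, adjusted p = 0.0894), TPM (0.0525), a filter in all 6 libraries (0.0523) and a fit without the intensity trend (0.0580) lost it too. Its range over the 17 alternatives was 0.00281 to 0.144 (limma, adjusted p). Nfkbib (IκBβ) and Bcl3, named for their roles and not by the rule, had differences of −0.13 and −0.03.

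No gene of the IKK complex and its upstream kinases passed (limma, 12 tested), while 7 of 12 had an unadjusted p under 0.05 (background 25.9%). Of the 12, 11 had a positive difference (background 70.8%), 8 had groups that did not overlap (background 31.5%), and the median was 0.28, against 0.10 over all tested genes. After median-of-ratios scaling 9 of the 12 were positive, with a median of 0.17, against −0.0013 over all tested genes. Chuk, the IKKα subunit, stood at 7.76, 7.97 and 10.74 FPKM in obese libraries 1 to 3, against 6.16, 4.5 and 6.86 FPKM in lean libraries 1 to 3 (log2 difference 0.53 ± 0.17, SE; limma, adjusted p = 0.0943). Tab3, an adaptor of the kinase TAK1, had a log2 difference of 0.57 ± 0.15 (SE; limma, adjusted p = 0.0635) at levels of 1.74 to 2.91 FPKM in obese and 0.97 to 1.25 FPKM in lean libraries. Ikbkb and Ikbkg, the other IKK subunits, named for their roles, had 0.21 and 0.03.

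In the arm from the antigen receptor to IKK, 0 of 7 tested genes passed (limma) and 1 had an unadjusted p under 0.05 (background 25.9%). It was Malt1, a paracaspase that carries antigen receptor signals to NF-κB, with a log2 difference of 0.50 ± 0.15 (SE; limma, adjusted p = 0.0913). Prkcb, a protein kinase C, had 0.24 ± 0.11 (SE; limma, adjusted p = 0.198). The list of the TNF receptor arm with the ubiquitin ligase LUBAC also holds Myd88, Irak1, Irak4 and Ticam1, of Toll-like receptor signalling. In this mixed list 0 of 16 passed (limma) and 4 had an unadjusted p under 0.05, a share near the background of 25.9%. Among the 4 was Myd88, with a log2 difference of −0.16. Birc3 and Birc2, the ubiquitin ligases cIAP2 and cIAP1, had log2 differences of 0.39 ± 0.10 (SE; limma, adjusted p = 0.0588) and 0.45 ± 0.13 (SE; limma, adjusted p = 0.0847), with groups that did not overlap. Groups did not overlap for 5 of the 16, a share near the background of 31.5%. Traf5 and Myd88, which were lower in obese libraries, were among them. The medians of both lists, 0.0073 and 0.02, lay under that of all genes.

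Known targets of NF-κB had differences of both signs. Of 33 tested, 6 were called higher in obese libraries and none lower, against 5.77% and 0.519% of all genes. Of the 33, 19 had a positive and 14 a negative difference (16 and 17 after median-of-ratios scaling), and the list's median was 0.11, against 0.10 over all tested genes. The count was 3 without lean 2. Vcam1, an adhesion molecule, averaged 84.7 ± 8.31 FPKM in obese and 21.3 ± 7.26 FPKM in lean libraries (SD, n = 3 each; log2 difference 1.98 ± 0.19, SE; limma, adjusted p = 7.10e-04). Vcam1 is also in the macrophage list, whose sum was 1171 to 1465 FPKM in obese and 452.2 to 483.8 FPKM in lean libraries. The part of these cells in the result was not tested. Bcl2a1d and Bcl2a1b, near-identical copies of the survival gene A1 among which reads can be split, had log2 differences of 0.64 ± 0.08 and 0.53 ± 0.08 (SE; limma, adjusted p = 0.00264 and 0.00728). Vcam1, Bcl2a1d and Bcl2a1b passed in all 6 fits without 1 library.

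Tifa, an adaptor of TRAF6, stood at 5.32, 4.87 and 7.74 FPKM in obese libraries 1 to 3, against 3.21, 2.63 and 2.31 FPKM in lean libraries 1 to 3 (log2 difference 0.89 ± 0.17, SE; limma, adjusted p = 0.0180). It did not pass without lean 2 (limma, adjusted p = 0.0694). The remaining pair called were Cd83, of activated antigen-presenting cells and lymphocytes, and the chemokine Ccl22, named after their values were seen, with differences of 0.57 and 0.68. Cd83 did not pass without lean 1 or lean 2 (limma, adjusted p up to 0.0626). Among the fits without 1 library, Ccl22 passed only without obese 2 (limma, adjusted p up to 0.119 in the others). Levels of Ccl22 were low, at 1.59 to 2.75 FPKM in obese and 0.84 to 1.10 FPKM in lean libraries. Ccl22 also did not pass after median-of-ratios scaling or quantile normalization (limma, adjusted p = 0.0525 and 0.116). B cell markers, with no called member, had a positive difference for 12 of 12 and a median of 0.44. Dendritic cell markers, also with none called, summed to 32.5 to 46.6 FPKM in obese and 33.8 to 37.3 FPKM in lean libraries. The part of both cell types in Cd83 and Ccl22 was not tested. Il2, Il6, Il12b, Csf2, Cxcl2, Ptgs2 and Nos2 stayed under the filter and were not tested. Tnf and Icam1, named for their roles, had −0.05 and 0.11 and did not pass.

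Of 19 immediate early genes, which respond within minutes to stimulation or handling, 1 was called higher and none lower, a share near the 5.77% higher and 0.519% lower of all tested genes. It was Dusp2, a phosphatase of MAP kinases, with a log2 difference of 0.52 ± 0.11 (SE; limma, adjusted p = 0.0260), a call lost when 1 of 4 libraries (either number 1 or either number 2) was left out, with a limma adjusted p of up to 0.0970, and under median-of-ratios scaling (0.0826). The list's median was 0.06. Of 12 heat shock genes, 6 were called lower and none higher (background 0.519% lower and 5.77% higher), with a median of −1.09. Dnajb1, a cochaperone, stood at 65.87, 70.13 and 90.22 FPKM in obese libraries 1 to 3, against 205.72, 248.98 and 230.30 FPKM in lean libraries 1 to 3 (log2 difference −1.59 ± 0.12, SE; limma, adjusted p = 4.02e-04). Hspa1b, Hspb1 and Bag3 of the same list had log2 differences of −1.79, −1.15 and −1.26, and all 4 passed in each of the 6 fits without 1 library. Hspa1a and Hsp90ab1, also called, did not pass in 3 and 5 of these 6 fits (limma, adjusted p up to 0.0793 and 0.107).

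**Figure D5:**
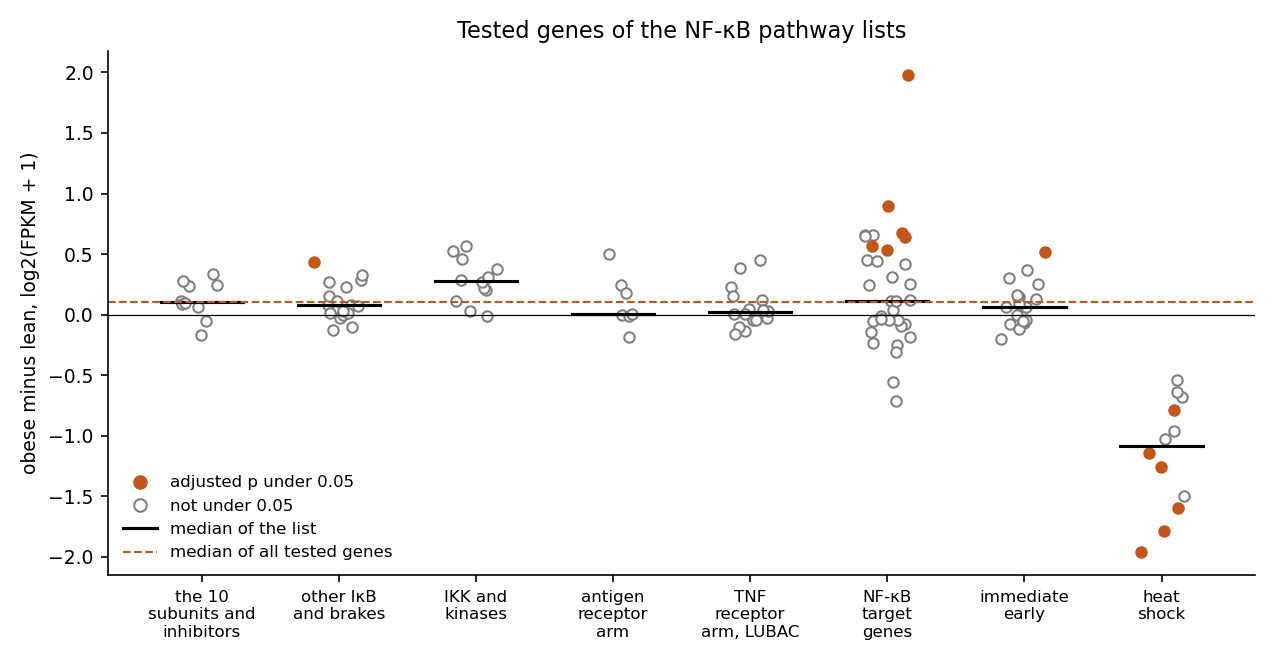
Obese minus lean difference in mean log2(FPKM + 1) of the 10 NF-κB genes and of the tested genes of each list (1 point per gene; filled points have an adjusted p under 0.05). Black bars are list medians, from −1.09 for heat shock genes to 0.28 for IKK and its kinases, and the dashed line is the median of all tested genes, 0.10.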

How the data were processed

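FPKM values of 22899 genes were deposited by the authors as 1 table per library. Per the submitters' processing notes, the tools were Bowtie and RSEM and the builds GRCm38 and mm10. The annotation release, with any filter or use of strand, was not given in the sources used here. A search for whole-read steps in low FPKM values, assuming fragments of 150, 200 or 250 bases, scored 0.13 to 0.177 of a maximum of 1, so depth is unknown and precision comes only from the spread between libraries. FPKM is relative within a library, so abundant transcripts lower all others.

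Groups follow the labels. The test was limma 3.58.1 (R 4.3.3) on log2(FPKM + 1), for the 10788 genes that reached 1 FPKM in 3 or more of the 6 libraries (group as sole term, intensity trend, 2-sided, Benjamini-Hochberg over all genes, threshold 0.05). All 10 NF-κB genes passed the filter. Intervals are 95%. The test was tested on simulated data. Beside the 10 genes, up to 4 called genes of each list with the smallest p were named, or 2 where none was called. The genes and lists were chosen with earlier results of these data known. One scaling leaves out haemoglobin, immunoglobulin and mitochondrial genes by name, and the names matched only 10 haemoglobin genes. Alternatives were other pseudocounts, filters, scalings, variance models, library weights, a replicate block and each library left out. Protein features were not analysed here. Coordinates and promoters are RefSeq's on GRCm38.p6, matched by gene number. The values of 1 gene of the antigen receptor list are not reported here.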

Additional observations from a re-analysis of the deposited data

How the results depend on the processing

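Under 15 of the 17 alternatives no NF-κB gene was called. With limma's library weights 4 were, among 3116 of all genes: Nfkb2 (log2 difference 0.20), Nfkbid (−0.28), Nfkbie (0.27) and Tnfaip3 (0.28). With libraries scaled without 10 haemoglobin genes 1 was, Nfkb2 (0.34), among 985 of all genes. Nfkb2, Rel, Nfkbiz and Tnfaip3 kept a positive and Nfkbid a negative difference in all 17, and the other 5 changed sign. After median-of-ratios scaling Nfkb1 had −0.0024, Relb −0.0271, Nfkbia −0.0593 and Nfkbie −0.0188. Rela had 0.012 as TPM, 0.0558 when scaled without those genes and 0.0318 with library weights, which gave Relb −0.0237. Without 1 library each, Rela ran from −0.11 to 0.0171, Relb from −0.0048 to 0.14 and Nfkbie from −0.0254 to 0.21. The cause was not tested.

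The count over all genes, 678, was 368 without a filter, 434 after quantile normalization, and 318 (without lean 2) to 698 (without lean 3) without 1 library; it was 326 without lean 1. Calls higher in obese made up 91.7%, against 77.4% (441 of 570) with median-of-ratios scaling, 74.2% (322 of 434) with quantile normalization and 80.5% (2507 of 3116) with library weights. Cd3e had 0.0148 when scaled without those genes, against −0.09. Without a filter, Tifa, Dusp2, Cd83, Ccl22, Tax1bp1, Bag3, Hspa1a and Hsp90ab1 did not pass, with limma adjusted p of 0.0528 to 0.116, and 3 target genes were called. Over 23 other named genes, 329 values kept direction and side of the threshold, 46 lost the call and 13 gained it. The looser promoter motif matched 100% of the 7 NF-κB genes with a window, against 53.5% of all genes with one.

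Libraries with the same number deviated from their group means with correlations of 0.032, 0.061 and 0.193. The last, of obese 3 with lean 3, was the highest of any obese with any lean library. Obese 1 correlated best with lean 2, at 0.16. Obese 2 had nearly the same value with lean 1, at 0.062, as with lean 2, at 0.061. The numbers were not taken as pairs in the main test, but these correlations do not settle whether they are. A replicate block gave 1015 calls and none of the 10 NF-κB genes, while Tab3, Chuk, Malt1, Birc3 and Birc2 passed with it (limma, adjusted p of 0.0275 to 0.0428). With the block, 4 of the 10 NF-κB genes had an unadjusted p under 0.05 (limma), against 2 without it. Of all tested genes, 25.9% were under 0.05 without the block, and the share with it is not given here. Calls over all genes rose from 678 to 1015, so the 2 counts cannot be read as particular to these genes.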
